A study of Bos taurus with 60 samples.

Results

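DRAM1, EPG5, LAMP1 and SORT1 are 4 genes of autophagy and the lysosome, followed here through the dry period in mammary tissue of Holstein cows. They were taken as a listed set of 4 among the 25223 loci of the count tables. Each gene was found by pairing its symbol with a locus in the part of the study's supplementary gene tables held here, and each locus carries 1 gene identifier. DRAM1 is locus XLOC_019357 (ENSBTAG00000017287), EPG5 is XLOC_014129 (ENSBTAG00000012067), LAMP1 is XLOC_003439 (ENSBTAG00000010242) and SORT1 is XLOC_017079 (ENSBTAG00000008849). Biopsies came from 12 multiparous cows at 5 time points, named D-3, D3, D7, D14 and D25 by the day counted from dry-off, when milking stopped. From dry-off on, 6 cows were heat stressed (HT), with shade only, and 6 were cooled (CL), with shade, fans and water soakers, and at D-3 neither treatment had begun. The cow is the replicate, each cow gave 1 library per time point, and the 60 libraries were made from whole tissue. According to the paper, the place of the biopsy in the udder alternated between time points. Within a cow, day and place of biopsy therefore changed together, and the part of place in the changes was not tested.

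Autophagy encloses cytoplasm in a double membrane, and the resulting autophagosome fuses with a lysosome, whose acid hydrolases degrade the contents. In the mammary gland, lysosomes and autophagy are studied at dry-off because milk-secreting cells stop secretion, and some die, when milk is no longer removed. DRAM1 is a lysosomal membrane protein that p53 induces and that promotes autophagy. EPG5 is a tether that joins autophagosomes to late endosomes and lysosomes. LAMP1 is one of the most abundant glycoproteins of the lysosomal membrane. SORT1, or sortilin, is a receptor of the Golgi and endosomes that carries prosaposin and other cargo to lysosomes.

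Total counts were 20525083 to 26183990 per library. The 4 genes had between 142 and 13837 reads in a library, and all of them passed the filter on low counts. The lowest count was that of DRAM1 in HT cow 8713 at D-3. Counting error was not measured against the spread between cows. Levels are given as CPM, read counts set to a common library total, after scaling by the trimmed mean of M values (TMM), and they are compared within a gene only, because gene lengths are not used. TMM factors ran from 0.30 to 1.21 at D-3 and from 0.80 to 1.21 on the dry days. The casein and α-lactalbumin genes CSN1S1, CSN2 and LALBA, the 3 of 7 milk secretion markers that could be paired, took 0.19% to 49.8% of counts at D-3. In the 4 later time points their highest share in any library was 14.5%. The luminal keratin KRT19, 1 of 6 luminal markers that could be paired, had a median of 908 CPM at D-3. In the D14 library of CL cow 7965 KRT19 was at 3.36 CPM, against at least 231 CPM in the other 11 D14 libraries, and the matrix gene DCN was at 5393 CPM against at most 1558. The D14 and D25 libraries of HT cows 8513 and 8660 each resembled the earlier libraries of the other cow. For cow 8513, the mean correlation of deviations from the group means was 0.51 with the early libraries of cow 8660 and -0.10 with its own.

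All 4 genes were higher at D3 than at D-3. The rise was 1.88-fold for SORT1, 1.41-fold for LAMP1, 1.29-fold for DRAM1 and 1.21-fold for EPG5. The test was the quasi-likelihood test of edgeR, fitted to the 60 samples together, and a locus was called at a Benjamini-Hochberg false discovery rate (FDR) of at most 0.05 over 14714 loci. By this rule 6.03% of all tested loci were higher at D3. The symbols were held only for loci near the top of the study's tables for the first 2 intervals (D-3 to D3 and D3 to D7), so the count of 4 out of 4 is not independent evidence. From D3 to D7 the log2 fold changes of LAMP1 and SORT1 were -0.52 and -0.57, of which that of LAMP1 passed the test, and no later change of DRAM1 or EPG5 between neighbouring days passed. Whether the 4 genes differed from each other in these changes was not tested. Leaving out 1 cow at a time called between 1 and 4 of the 4 genes at D3. Only 1 was called without HT cow 8713, and 2 without CL cow 8564 or CL cow 8647. In cows 8713, 8564 and 8647 the paired milk genes took 49.8%, 40.2% and 44.4% of counts at D-3. The D-3 TMM factors of these cows were 0.30, 0.39 and 0.33.

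**Figure D1:**
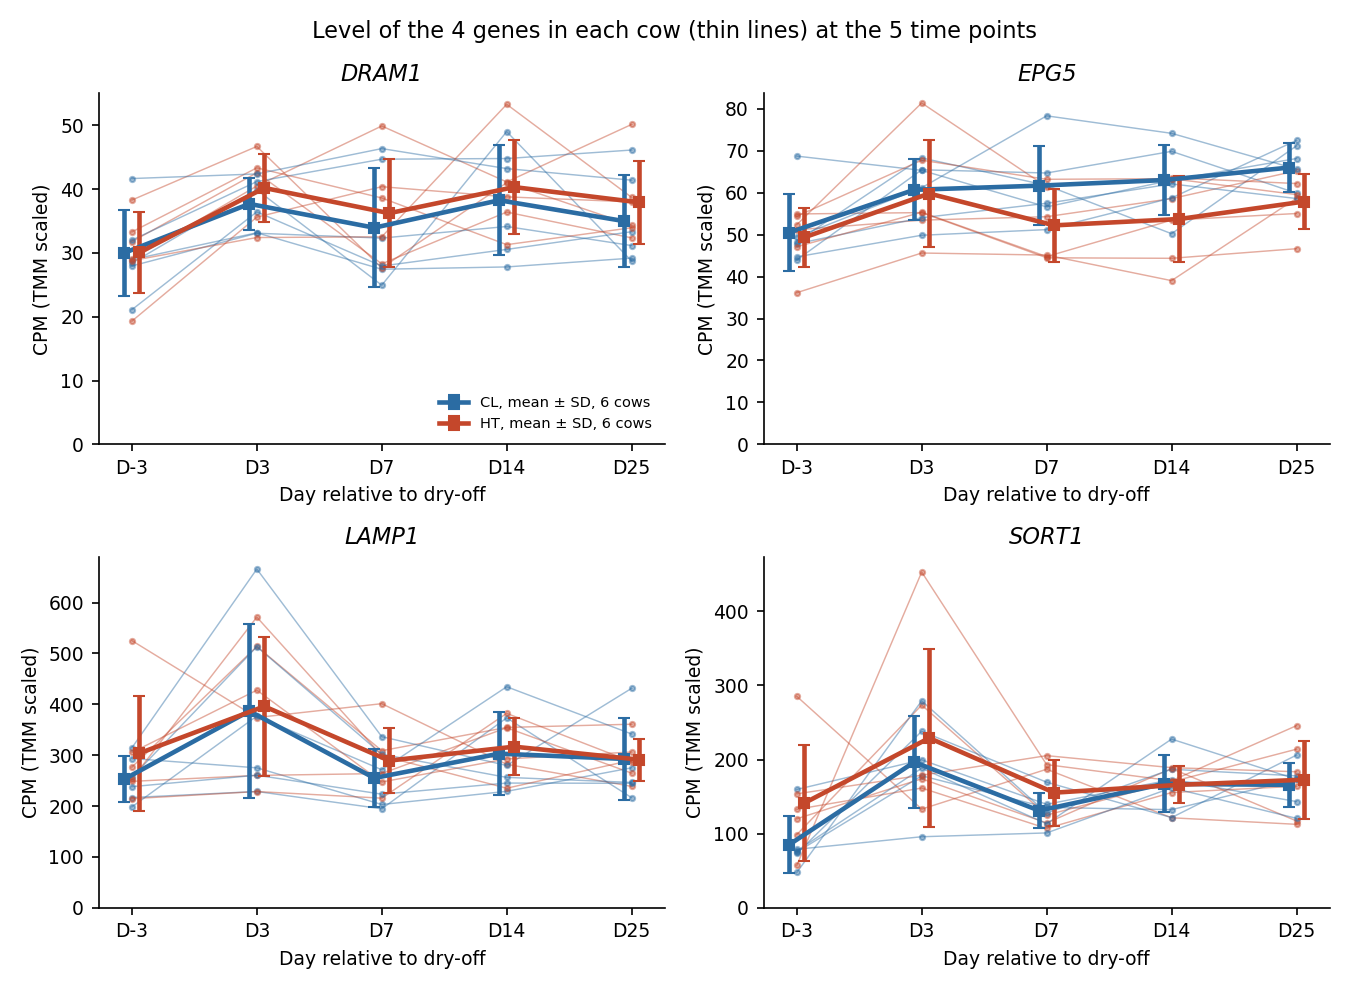
Level of each gene (vertical axis, CPM after TMM scaling, from 0) at the 5 time points (horizontal axis, day relative to dry-off, not to scale). Thin lines are single cows and squares with bars are the mean ± SD of 6 cows, blue for CL and red for HT. LAMP1 and SORT1 peak at D3, whereas DRAM1 and EPG5 rise to D3 and change little afterwards, and the bars of CL and HT overlap throughout.

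DRAM1 was at 30.0 ± 6.23 CPM at D-3 (mean ± SD, n = 12 cows), with a lowest cow of 19.3, a median of 29.0 and a highest cow of 41.7. At D3 it was at 38.9 ± 4.67 CPM, with values of 32.4, 40.2 and 46.7 in the same order. The ranges overlap, but within cows DRAM1 was higher at D3 in 12 of 12. The log2 fold change was 0.37 (SE 0.11, FDR 0.0204 by edgeR). The mean within-cow change in log2 CPM was 0.39 ± 0.25 (SD), from 0.025 in CL cow 8686 to 0.88 in HT cow 8713, with a two-sided exact sign-flip p of 4.88e-04, the smallest that 12 cows allow. DRAM1 was the only one of the 4 to be higher in every cow. Without cow 8713 the rise was 0.35 with an FDR of 0.0519. The D7 mean was 35.1 ± 8.56 CPM, from 24.9 to 49.9, and 7 of 12 cows were lower than at D3 (log2 fold change -0.15, SE 0.11, FDR 0.564). At D14 the level was 39.3 ± 7.69 CPM, and at D25 it was 36.5 ± 6.68 CPM. Against D-3, D14 was higher (log2 fold change 0.38, SE 0.11, FDR 0.0139), in 10 of 12 cows, but not without cow 8713 (0.33, FDR 0.0556), and D25 did not pass the test (0.28, SE 0.11, FDR 0.0973). With the cow as a block, which the repeated biopsies justify, D25 passed at an FDR of 0.0371. The CL library of cow 7965 at D14 held the highest DRAM1 value among the CL cows, 49.0 CPM, and without it the D14 change was 0.35 with an FDR of 0.0317. In order of their means the time points were D14, D3, D25, D7 and D-3, and the first 4 means lay within 1 SD of each other.

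EPG5 was at 49.9 ± 7.82 CPM at D-3, with a lowest cow of 36.2, a median of 48.9 and a highest of 68.7. At D3 it was at 60.2 ± 9.90 CPM, with 45.6, 58.3 and 81.4. The ranges overlap widely, yet 11 of 12 cows were higher at D3, and the exception was CL cow 8603, which had the highest D-3 value. The log2 fold change was 0.27 (SE 0.095, FDR 0.0442), and the exact sign-flip p was 0.00244. With the cow as a block the FDR was 0.0082. Without the block this call is close to the threshold. It was lost in 7 of the 12 unblocked fits that left out 1 cow (7965, 8060, 8314, 8564, 8647, 8668 or 8713), with an FDR of up to 0.139 without HT cow 8713. The means at D7, D14 and D25 were 56.9 ± 9.92, 58.4 ± 10.1 and 61.9 ± 7.21 CPM. D25 was thus the highest time point, higher than D-3 by 0.31 on the log2 scale (SE 0.095, FDR 0.0226) and in 10 of 12 cows. The D25 call was lost without cow 7965, 8647 or 8713, with an FDR of up to 0.0897. D14 did not pass against D-3 (0.22, SE 0.095, FDR 0.0851), but it did with the cow as a block, at an FDR of 0.0265. From D3 to D7 the log2 fold change was -0.081 (SE 0.095, FDR 0.761), and 8 of 12 cows were lower.

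LAMP1 was at 278 ± 85.8 CPM at D-3, with a lowest cow of 198, a median of 255 and a highest of 525. At D3 it was at 391 ± 148 CPM, with 228, 375 and 666. It rose in 10 of 12 cows (log2 fold change 0.49, SE 0.16, FDR 0.0241; exact sign-flip p = 0.0205). With the cow as a block the FDR was 0.0141. In unblocked fits the call was lost without cow 8541, 8564, 8603, 8647 or 8713, with an FDR of up to 0.0878. The within-cow changes spread from -0.49 in HT cow 8513, whose D-3 value of 525 CPM was the highest of that time point, to 1.18 in HT cow 8713. By D7 LAMP1 was at 272 ± 60.9 CPM, with 195, 268 and 401, about where it had been at D-3. The change from D3 to D7 was -0.52 (SE 0.16, FDR 0.0482), lower in 10 of 12 cows, with an exact sign-flip p of 0.00293. By this rule 2.3% of all tested loci were lower at D7 than at D3, and LAMP1 was the 1 gene of the 4 among them. With the cow as a block its FDR was 0.0238. Without the block the call is at the edge of the threshold. In unblocked fits it was lost without cow 8060, 8314, 8541, 8564, 8603, 8647, 8660 or 8713. In the 12 fits that left out 1 cow the log2 fold change stayed between -0.59 and -0.46. D14 and D25 were at 310 ± 67.3 and 292 ± 60.9 CPM. Neither passed against D-3 (log2 fold changes 0.15 and 0.069, FDR 0.513 and 0.811), and D25 did not pass against D3 either (-0.42, SE 0.16, FDR 0.0888), where 4.62% of loci were lower and 0 of the 4 genes.

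SORT1 had the widest within-cow spread of the 4 genes. At D-3 it was at 113 ± 65.4 CPM, with a lowest cow of 47.7, a median of 88.9 and a highest of 285. At D3 it was at 213 ± 92.3 CPM, with 95.9, 184 and 453. SORT1 rose in 11 of 12 cows, by 0.91 on the log2 scale (SE 0.20, FDR 0.00121; exact sign-flip p = 0.0122). The within-cow changes reached from -1.10 in cow 8513, again the highest cow at D-3, to 2.99 in cow 8713, the highest at D3. Without cows 8513 and 8660 the log2 fold change was 1.28 (FDR 2.46e-05). The D7 level was 143 ± 36.2 CPM, with a highest cow of 205, and 9 of 12 cows were lower than at D3. That change of -0.57 had an FDR of 0.101 (SE 0.20, edgeR), whereas the exact sign-flip p over cows was 0.0112. It passed without cow 8513, at -0.66 and an FDR of 0.0282. SORT1 was then at 167 ± 30.9 CPM at D14 and 169 ± 41.0 CPM at D25, above D-3 by 0.55 (SE 0.20, FDR 0.0412) and 0.58 (SE 0.20, FDR 0.0433). The D14 difference was seen in 11 of 12 cows and the D25 difference in 9 of 12. Cow 8513 had the lowest change on both days, -1.23 and -1.34, and its late libraries resembled the early ones of cow 8660. The D14 call was lost without cow 7965, 8314, 8541, 8564, 8603, 8647, 8686 or 8713, with an FDR of up to 0.135. The D25 call was lost without cow 7965, 8541, 8564, 8603, 8647, 8660 or 8713, with an FDR of up to 0.159.

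**Figure D2:**
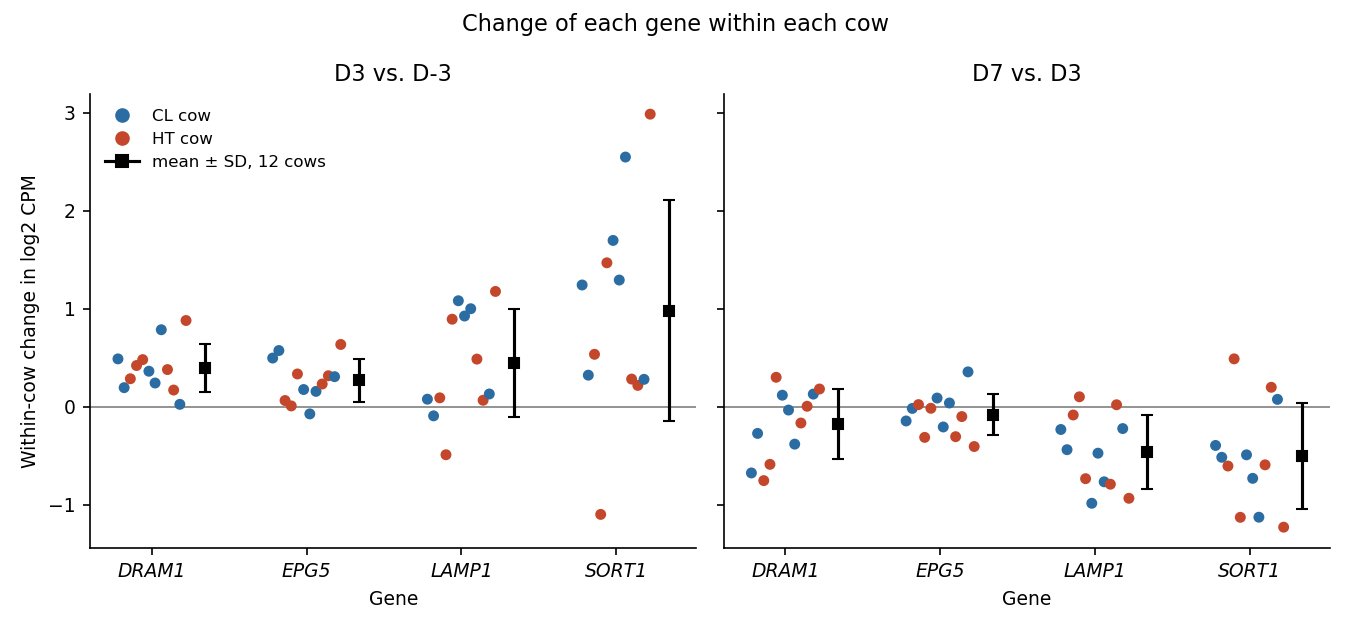
Within-cow change in log2 CPM (vertical axis) of each gene (horizontal axis) from D-3 to D3 (left) and from D3 to D7 (right). Points are the 12 cows, blue for CL and red for HT, and black squares with bars are the mean ± SD. All 12 cows lie above 0 for DRAM1 on the left, while SORT1 spans -1.10 to 2.99.

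Between later neighbouring days no change of the 4 genes passed the test. For D14 vs. D7 edgeR called 0% of loci and 0 of the 4 genes, with the smallest unadjusted p of the 4 at 0.159, and for D25 vs. D14 it called 0.0612% of loci and 0 of the 4, with the smallest p at 0.348. DESeq2 also called 0 of the 4 in both, and under either tool 0 of the 4 had an unadjusted p under 0.05. At D7 none of the 4 passed against D-3 by edgeR (smallest FDR 0.201; 0 of 4 at an unadjusted p under 0.05), where 1.34% of loci were higher, and DESeq2 called 0, with 1 of 4 at an unadjusted p under 0.05. At D14 8.23% of loci were higher than at D-3, and DRAM1 and SORT1 were the 2 of the 4 that were. At D25 3.96% of loci were higher, and EPG5 and SORT1 were the 2 of the 4. The exact sign-flip tests of the 4 genes numbered 32 over the 8 comparisons, of which 15 had a p under 0.05, with no adjustment.

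Without HT cows 8513 and 8660 the DRAM1 log2 fold change from D3 to D7 lay nearer to 0, at -0.11 against -0.15. The DRAM1 FDR at D3 was then 0.0391 against 0.0204 with all cows. The following values without both cows are a selection, and each lay further from 0 than in the fit of all cows. At D3 they were DRAM1 0.39 (FDR 0.0391), EPG5 0.33 (FDR 0.0184) and LAMP1 0.66 (FDR 0.00485) on the log2 scale, beside the SORT1 value given above. From D3 to D7 they were LAMP1 -0.58 (FDR 0.0451) and SORT1 -0.67 (FDR 0.0491). Against D-3 they were DRAM1 0.47 (FDR 0.00858), EPG5 0.30 (FDR 0.0216) and SORT1 0.88 (FDR 0.00114) at D14, and DRAM1 0.33 (FDR 0.0804), EPG5 0.38 (FDR 0.00728) and SORT1 0.90 (FDR 0.00174) at D25.

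The size of the rise at D3 depended on scaling. With total library size in place of TMM, the median log2 fold change of all loci was 0.35 instead of -0.011 for D3 vs. D-3, and 0.48 instead of 0.0032 for D25 vs. D-3. The rises of the 4 genes at D3 then became 0.67 for DRAM1, 0.61 for EPG5, 0.78 for LAMP1 and 1.05 for SORT1, so that relative to that shift their order and direction were as before. The fall of LAMP1 from D3 to D7 was -0.40 under that scaling and did not pass (FDR 0.634).

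Milk transcripts at D-3 fell into separate clusters, with 7 cows at 0.19% to 8.03% of counts and 5 cows at 40.2% to 49.8%, and so no correlation was pooled over the 12 cows. The 5 cows were 2 HT and 3 CL. SORT1 at D-3 was between 47.7 and 98.8 CPM in these 5 cows and between 76.8 and 285 CPM in the other 7. Its change to D3 lay between 1.24 and 2.99 in the 5 cows and between -1.10 and 1.29 in the 7. The lowest DRAM1 value at D-3 was 19.3 CPM in the 5 and 28.0 CPM in the 7. The DRAM1 change to D3 lay between 0.36 and 0.88 in the 5 and between 0.025 and 0.42 in the 7. For EPG5 these ranges were 0.16 to 0.64 and -0.073 to 0.57, and for LAMP1 0.077 to 1.18 and -0.49 to 0.93. Within the 7 cows, Pearson's r of SORT1 with log2 milk transcripts was 0.24 (exact permutation p = 0.609) and Spearman's rho was 0.25 (exact permutation p = 0.595). For the other 3 genes r lay between -0.21 and 0.21 with exact permutation p from 0.615 to 0.971, so no relation was detectable with 7 cows. Without the 2 cows farthest from the median of milk transcripts, r was 0.59 for SORT1, -0.29 for DRAM1, -0.35 for EPG5 and 0.43 for LAMP1, so these values rest on those cows, and that of EPG5 changed sign. The part of milk transcripts in the rise at D3 was not tested.

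Markers of other cell types also moved at D3. The myoepithelial genes KRT5, ACTA2 and MYH11, the 3 of 6 that could be paired, summed to 434 to 2480 CPM at D-3 (median 1272), 850 to 3277 CPM at D3 (median 2173) and 750 to 1904 CPM at D7 (median 1092). The first 2 of them, the keratin KRT5 and the smooth muscle actin ACTA2, rose at D3 by 1.01 and 0.81 (FDR 0.019 and 0.0351). The macrophage genes AIF1 and MSR1, 2 of 10, summed to 45.2 to 85.7 CPM at D-3 and 54.9 to 117 CPM at D3, and 0 of them passed there (edgeR; 0 at an unadjusted p under 0.05). Their sum had medians of 73.0 CPM at D-3 and 73.5 CPM at D3. Later medians were higher, at 87.6 CPM (56.2 to 252) at D14, where DRAM1 had its highest mean, and 96.3 CPM at D25. The endothelial receptor KDR, 1 of 5, fell by 0.95 at D3 (FDR 0.0023), though by only 0.063 and without passing under library size scaling, from a range of 58.9 to 371 CPM to one of 58.2 to 172 CPM. The skeletal muscle myosin MYH2, 1 of 6, had a median of 0.57 CPM at D-3 and 3.65 CPM at D3. Its log2 fold change was 2.95 at D3 and -4.46 from D3 to D7, and both passed. Its levels were low, with at most 2.58 CPM at D-3 and 16.7 CPM at D3. The adipocyte gene ADIPOQ had medians of 13.7 and 5.43 CPM at D-3 and D3, and the fibroblast gene DCN of 672 and 702 CPM. Neither passed at D3. At D14 the median was 13.3 CPM for ADIPOQ and 952 CPM for DCN. No neutrophil, lymphocyte or pan-leukocyte marker could be paired. Fewer cells of a type and less RNA per cell cannot be told apart in whole tissue, and the part of cell composition in the changes of the 4 genes was not tested.

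No difference between HT and CL cows passed the test for any of the 4 genes at any time point. The comparison was made at each day in a fit of its 12 samples. At an FDR of at most 0.05 edgeR called 0% of loci at each of the 5 days, and 0 of the 4 genes at each day, where 0 of them had an unadjusted p under 0.05 and the smallest FDR was 0.961. DESeq2 called 0 as well, with 1 of the 4 at an unadjusted p under 0.05, SORT1 at D-3. By a looser rule, an unadjusted p no higher than 0.005 with a log2 fold change of 0.5 or more either way, edgeR called 0.0371% of loci at D-3. On the dry days it called 0.0146% (D3), 0.311% (D7), 0.0433% (D14) and 0.036% (D25), and again 0 of the 4 genes.

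EPG5 had the HT means furthest below CL on the dry days. At D7 it was at 52.2 ± 8.66 CPM in HT cows, with 44.5, 49.7 and 63.2 as lowest, median and highest, and at 61.7 ± 9.37 CPM in CL cows, with 51.2, 59.6 and 78.3. At D14 the HT cows were at 53.7 ± 10.2 CPM and the CL cows at 63.0 ± 8.41. At D25 the HT cows were at 57.9 ± 6.48 CPM, with 46.6, 59.1 and 65.2, and the CL cows at 66.0 ± 5.75, with 58.6, 66.9 and 72.5. The groups overlap on every day. The log2 fold changes were -0.24 (SE 0.13), -0.23 (SE 0.15) and -0.19 (SE 0.10) at D7, D14 and D25, with edgeR FDR values of 0.961, 0.999 and 0.997. At D3, 3 days into the treatments, the value was -0.027 (SE 0.16). The two-sided exact permutation test over all ways of choosing 6 of the 12 cows gave p = 0.0433 at D25 and p = 0.104 for the mean of the 4 dry days. This D25 value was the only one of 40 such tests with a p under 0.05.

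SORT1 differed most before the treatments began. At D-3 the HT cows were at 141 ± 77.9 CPM, with 57.1, 127 and 285 as lowest, median and highest, and the CL cows at 85.3 ± 38.2 CPM, with 47.7, 76.0 and 160. The log2 fold change was 0.74 (SE 0.36), and the exact permutation p was 0.126. On the dry days the HT vs. CL values were 0.21 (SE 0.31) at D3, then 0.25 (SE 0.19), -0.0089 (SE 0.17) and 0.061 (SE 0.20). The sign at D3 turned without cow 8713, to -0.098. The within-cow rise from D-3 to D3 was 0.73 ± 1.38 (SD) in HT and 1.23 ± 0.86 in CL cows, and this difference of -0.50 had an exact permutation p of 0.494.

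DRAM1 and LAMP1 showed small differences only. DRAM1 was higher in HT by 0.082 to 0.12 on the log2 scale on the 4 dry days, with standard errors of 0.13 to 0.19. LAMP1 differed by -0.0050 to 0.18 on these days, with standard errors of 0.17 to 0.29. For DRAM1, the mean level over the 4 dry days was higher in HT by 0.10 (exact permutation p = 0.390), and for LAMP1 by 0.089 (exact permutation p = 0.539). The interaction of treatment and time, tested with edgeR in the fit of all 60 samples, had an FDR of 1 for each of the 4, and 0 of them had an unadjusted p under 0.05.

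**Figure D3:**
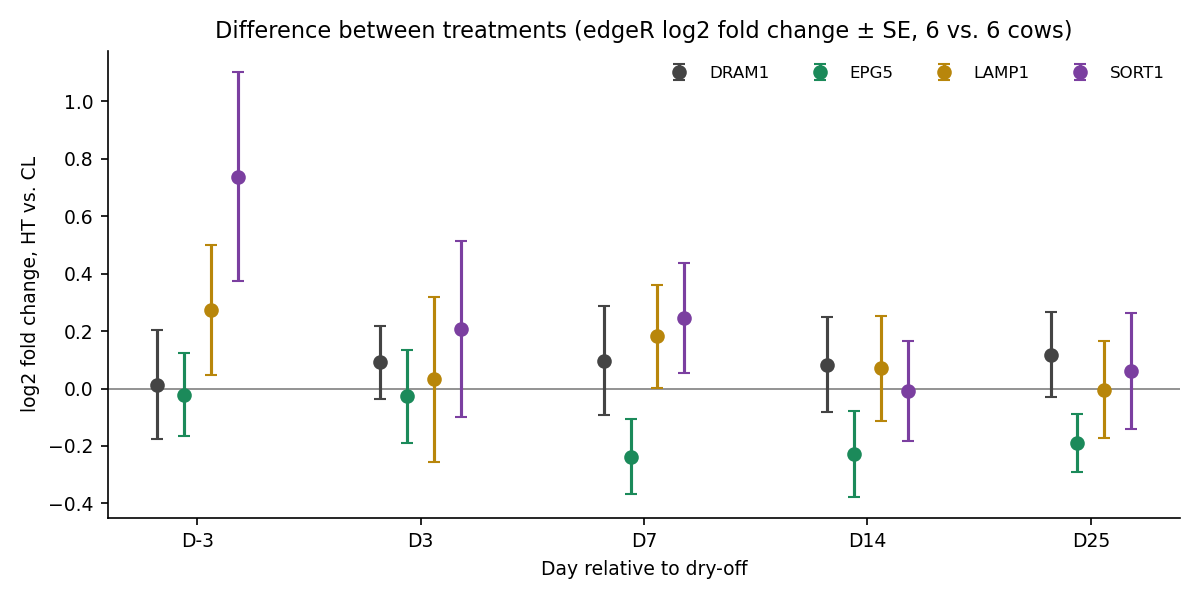
log2 fold change of HT vs. CL (vertical axis) at each time point (horizontal axis), 4 genes in 4 colours, with bars of ± 1 SE from edgeR's fit of that day's 12 samples. EPG5 lies at -0.24, -0.23 and -0.19 at D7, D14 and D25, and SORT1 at 0.74 at D-3, before the treatments.

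Of the 4 genes, LAMP1 and SORT1 were most alike. Over the 60 samples, which share cows and time points, Pearson's r of log2 CPM was 0.60 between LAMP1 and SORT1 and 0.55 after the mean of each time point was taken out. LAMP1 was more like SORT1 than 98.4% of loci were, and SORT1 more like LAMP1 than 94.0% were. It was 0.34 between DRAM1 and SORT1, 0.33 between EPG5 and SORT1, 0.32 between DRAM1 and LAMP1, 0.10 between DRAM1 and EPG5, and -0.14 between EPG5 and LAMP1. With time point means taken out these 5 values were 0.11, 0.13, 0.22, -0.099 and -0.29. These values are descriptions. The SD of cow means over the 5 days was 0.19 for DRAM1, 0.17 for EPG5, 0.23 for LAMP1 and 0.21 for SORT1 on the log2 scale. The SD within cows around the time course was 0.23, 0.17, 0.33 and 0.49, so SORT1 varied most from biopsy to biopsy of the same cow. These biopsies differed in day and in place in the udder.

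The loci with a symbol whose log2 CPM was most like that of each gene over the 60 samples were named by rank. For LAMP1 they were the small thioredoxin-fold protein SH3BGRL3 (r = 0.93), the saposin precursor PSAP (0.92), the renin-binding epimerase RENBP (0.91), the receptor LRP10 (0.90) and the lysosomal phospholipase-like PLBD2 (0.90). With time point means taken out these values stayed between 0.89 and 0.92. For SORT1 they were the scavenger receptor SCARA3 (0.82), the scaffold SASH1 (0.81), LEPROT (0.80), which regulates receptor traffic, the lipase ABHD12 (0.80) and the glycosyltransferase MGAT5 (0.80). For EPG5 they were ZAR1L (0.79), the phosphoinositide phosphatase SYNJ1 (0.74), the methyltransferase METTL6 (0.73), GNAT2 (0.73) and the phospholipase PLD1 (0.73). For DRAM1 they were the kinase MKNK1 (0.72), the lysosomal thiol reductase IFI30 (0.68), the interferon regulatory factor IRF5 (0.67), the interferon receptor subunit IFNAR2 (0.67) and LRRC25 (0.66). With time point means taken out the values were 0.70 to 0.78 for SORT1, 0.68 to 0.76 for EPG5 and 0.56 to 0.65 for DRAM1.

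Of 13 listed partners of the 4 genes, 7 could be measured. TP53INP1, a p53 target that binds ATG8 proteins, rose at D3 with DRAM1 by 0.55 (SE 0.15, FDR 0.00763). SNAP29, a SNARE of autophagosome fusion, fell by 0.70 (SE 0.20, FDR 0.0135), and over the samples its r with EPG5 was -0.48. VAMP8, the lysosomal SNARE of the same complex, changed by 0.27 at D3 (SE 0.14, FDR 0.197) and fell by 0.47 from D3 to D7 (SE 0.14, FDR 0.0487). CD63, a tetraspanin of lysosomes, and SCARB2, a lysosomal membrane glycoprotein, had values of 0.31 (SE 0.16, FDR 0.218) and -0.16 (SE 0.11, FDR 0.368) at D3, neither past the threshold. M6PR, the cation-dependent mannose 6-phosphate receptor that sorts hydrolases beside SORT1, rose by 0.24 (SE 0.076, FDR 0.0233). PSAP, a SORT1 cargo, had a D3 value of 0.50 (SE 0.22, FDR 0.108), with means of 929 ± 441 CPM at D-3 and 1318 ± 692 CPM at D3. DRAM2, STX17, RAB7A, LAMP2, SORL1 and IGF2R were not paired with a locus in the tables held.

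Other genes of autophagy and the lysosome were taken from 11 lists. Of 162 genes in the autophagy and lysosome lists, which leave out the 4 genes and the lists of p53 targets and regulators, 48 could be paired and tested. At D3, 21 of the 48 were higher than at D-3, 8 were lower, and 19 did not pass, with a median log2 fold change of 0.29 against -0.011 over all tested loci. As for the 4 genes, this is not independent evidence: of the 3007 tested loci with a symbol, 55.4% were called in this comparison in either direction, against 15.1% of all loci, with 693 higher and 974 lower. From D3 to D7, 10 of the 48 were lower and 1 was higher, with a median of -0.32 against 0.0011 over all loci, while 13.3% of loci with a symbol were called. At D25, 2 of the 48 were higher than at D-3 and 7 were lower, with a median of -0.051, where 23.4% of loci with a symbol were called, 92 higher and 613 lower. Under scaling by total library size 32 of the 48 were higher and 0 lower at D3. Of all 14714 tested loci 2217 were then higher and 176 lower, with a median log2 fold change of 0.35, so these counts share the shift of all loci. The falls from D-3 to D3 named here for list genes did not pass under that scaling. Those of SNAP29 and ATP6V0A2 changed sign, as all measured fusion and proton pump genes then had values above 0. From D3 to D7 it called 1 lower, a hydrolase, and 0 higher, so the falls of VAMP8, GABARAPL1 and SQSTM1 in that interval did not pass either.

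Of 47 listed lysosomal hydrolases and activators, 12 were measured. At D3 9 of the 12 rose, 0 fell and 3 did not pass, with a median log2 fold change of 0.53. Of the 3007 tested loci with a symbol 693 rose and 974 fell, which is 55.4% called in either direction. The cysteine protease CTSV had the smallest p, with a rise of 1.30 (SE 0.27, FDR 6.17e-04) from 70.5 ± 29.1 to 174 ± 158 CPM, and a fall of 1.43 by D7 (SE 0.27, FDR 0.00197). Of the 8 lysosomal membrane proteins 2 rose, LAMP1 with the smallest p, and 0 fell. Of the 5 proton pump subunits 1 rose and 1 fell, ATP6V0A2, by 0.60 (SE 0.13, FDR 0.00145). With 55.4% of loci with a symbol called, the membrane protein and proton pump counts are no result about either list.

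Of 23 listed sorting receptors and adaptors 7 were measured. SORT1 and M6PR rose and 3 of the 7 fell, beside 693 loci with a symbol that rose and 974 that fell. With 55.4% of loci with a symbol called, these counts are no result about the list. The retromer subunit VPS35 had the smallest p, with a change of -0.91 (SE 0.18, FDR 4.84e-04) from 357 ± 207 to 190 ± 48.1 CPM. The list median was -0.27, against 0.91 for SORT1. Under scaling by total library size 3 of the 7 rose and 0 fell.

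Among autophagy genes, the cargo receptor SQSTM1 (p62) rose by 1.12 at D3 (SE 0.23, FDR 5.02e-04), from 225 ± 90.8 to 490 ± 320 CPM, and fell by 1.02 to D7 (SE 0.23, FDR 0.00978). GABARAPL1, an ATG8 protein of the autophagosome membrane, rose by 0.69 (SE 0.16, FDR 0.00221) and fell by 0.86 (SE 0.16, FDR 0.00197). VPS39, a HOPS tethering subunit, rose by 0.36 (SE 0.079, FDR 0.00115), and ULK2, a kinase that starts autophagy, by 0.25 (SE 0.09, FDR 0.0457). WIPI1, a phosphoinositide effector on the forming membrane, fell by 1.28 (SE 0.30, FDR 0.00189), from 116 ± 91.5 to 47.7 ± 20.1 CPM. Of the 7 fusion genes, EPG5 included, 3 rose and 2 fell, beside 693 loci with a symbol that rose and 974 that fell. Of 11 listed genes of the DRAM family and p53 targets 3 were measured, DRAM1, TP53INP1 and the stress sensor SESN2, and the last had a rise of 0.57 (SE 0.15, FDR 0.00538). Of 17 listed regulators 3 were measured and rose, folliculin (FLCN) by 0.40 (SE 0.11, FDR 0.00975). With 55.4% of loci with a symbol called, 3 of 3 is no result about either list. HT vs. CL called 0 of the 48 at an FDR of 0.05 by edgeR on any day. At an unadjusted p under 0.05 there were 3 of them at D-3, 2 at D7 and 0 on the other days. Over all loci such a p was found for 240 of 13462 at D-3 and 615 of 13814 at D7. On the other days it was 69 of 13710 (D3), 196 of 13841 (D14) and 301 of 13888 (D25).

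**Figure D4:**
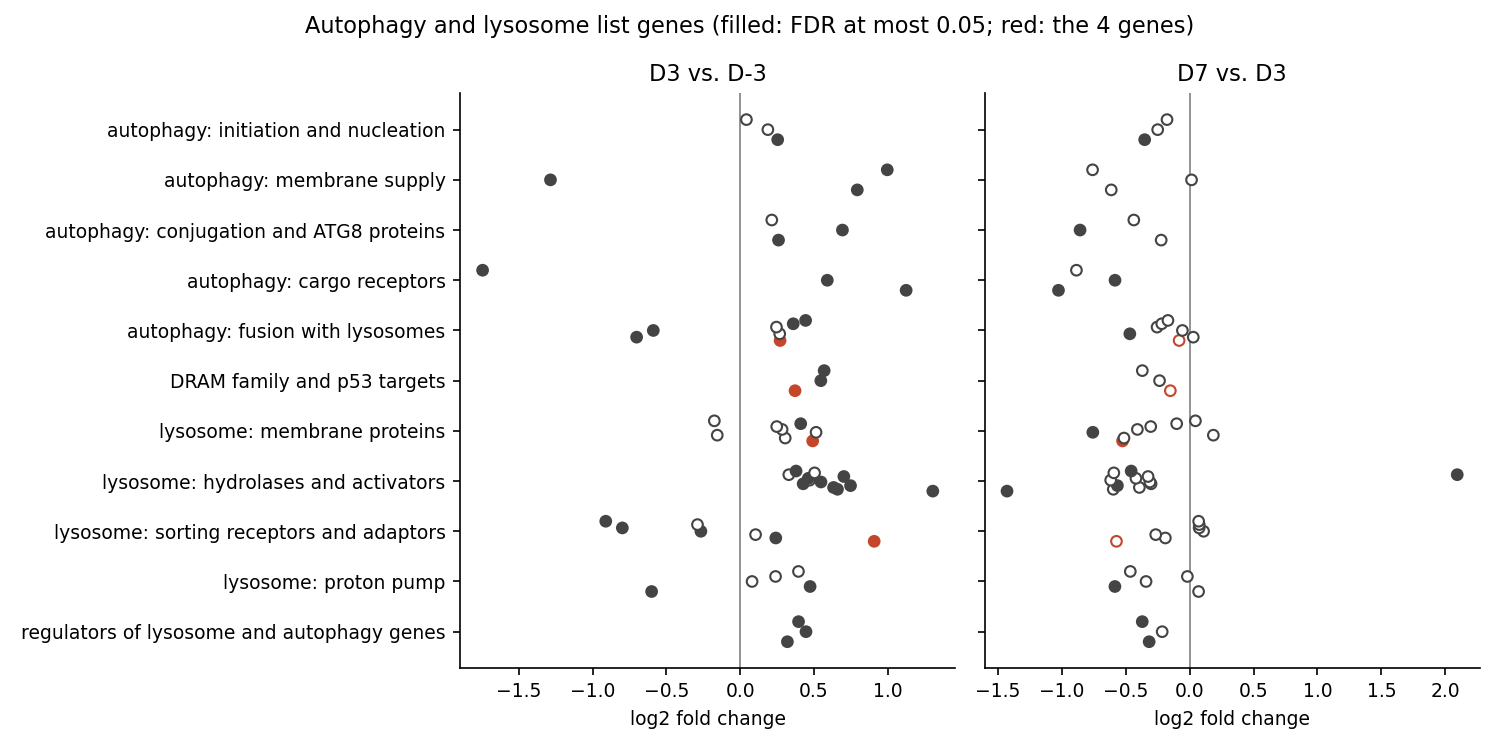
log2 fold change (horizontal axis) of each measured gene of the 11 lists (vertical axis) for D3 vs. D-3 (left) and D7 vs. D3 (right). Filled points have an FDR of at most 0.05 by edgeR, open points do not, and the 4 genes are red. The 12 hydrolases all lie to the right of 0 at D3, and SORT1 lies at 0.91 in a sorting list whose median is -0.27.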

How the data were processed

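Mammary biopsies of 12 cows, 6 HT and 6 CL, at 5 time points gave 60 single-end poly(A) RNA-Seq libraries. The authors trimmed reads with Trim Galore 0.4.1, mapped them with TopHat2 2.0.13, assembled and merged transcripts with Cufflinks 2.2.1 and counted reads per locus with HTSeq. The deposited values are whole-number counts per locus, not normalized. The build is UMD3.1 in the submitters' processing notes and bosTau7 in the methods, and no coordinate is given here. Total counts were 20525083 to 26183990 (median 22637562.5). Repeated entries of a locus with several identifiers (742 loci) were counted once.

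The filter kept loci that reached 1 CPM in 6 or more samples. Counts were scaled by TMM and tested with edgeR 4.0.16 (R 4.3.3), time in a fit of all 60 samples and HT vs. CL in fits of 12. Single genes were tested on log2 CPM (prior count 2) with two-sided exact tests, by 4096 sign changes within cows or by every split of the 12 cows into 6 and 6. Pearson correlations are over 60 samples, except that milk transcripts were related to levels only within the 7 cows of one cluster. Python 3.11.15 with scipy 1.17.1, pandas 2.3.3, numpy 2.4.6 and, for figures, matplotlib 3.10.9 was used. The fits were tested on simulated data.

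The 4 genes, lists and markers were chosen with earlier results of these data known. Named genes were the 4 genes, partners set for each, the gene with the smallest p from D-3 to D3 in each of 11 lists, and for each of the 4 the 5 loci with a symbol most correlated with it. Markers and lists were otherwise given by counts. Symbols came from supplementary tables held in part, which pair 3033 loci and were ordered by p for the first 2 intervals. Their columns of the authors' own fold changes and p-values were not used. Cow numbers pair samples because each cow was biopsied repeatedly. Deviations from the group means correlated at 0.29 on average within a cow and -0.025 between cows. No p-value was adjusted over the 4 genes alone. Alternatives were RLE factors, library size only, TMM without milk genes, DESeq2 1.42.0, other filters, tagwise dispersions, the newer edgeR method, treatment as a covariate, the cow as a block, fewer samples, cows 8513 and 8660 exchanged or left out, and each cow left out.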

Additional observations from a re-analysis of the deposited data

Results flagged for a closer look

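Among the 40 groups of 6 cows (4 genes, 2 treatments, 5 days) 2 held a sample whose gap to its nearest neighbour was large for the group's range by Dixon's criterion at 95%, and chance flags about 1 in 20 groups. EPG5 in CL cow 8603 at D-3 was at 68.72 CPM, and the next highest CL cow at 49.4 CPM. EPG5 in HT cow 8541 at D-3 was at 36.158 CPM, and the next lowest HT cow at 47.1 CPM.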

How the results depend on the processing

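Under the 15 alternatives for the comparisons of time points and the 6 for HT vs. CL, the rises of DRAM1 and SORT1 at D3 kept their direction and call in every one. Scaling by library size only, which shifts all loci, gave for D25 vs. D-3 DRAM1 0.70 and LAMP1 0.56, both now called, and 4 of the 4 genes instead of 2. EPG5 and LAMP1 D14 vs. D-3 also passed (0.64 and 0.58). It ended the call of LAMP1 D7 vs. D3 (-0.40, 0 genes called). It turned DRAM1 D25 vs. D3 to 0.030, LAMP1 D7 vs. D-3 to 0.38, DRAM1 HT vs. CL at D7 to -0.019, EPG5 HT vs. CL at D-3 to 0.025, and the correlation of EPG5 and milk transcripts at D-3 to -0.030. With it 32 list genes rose and 0 fell at D3, where 2217 of all 14714 loci rose and 176 fell. From D3 to D7 0 list genes rose and 1 fell, beside 12 and 24 of all loci. A fit of only the 24 samples of both time points called 2 genes at D3 (EPG5 0.28 and LAMP1 0.49 lost), 0 at D7 (LAMP1 -0.52) and 1 in D25 vs. D-3 (SORT1 0.57 lost). SORT1 D14 vs. D-3 was also lost (0.57). With no filter on low counts, LAMP1 D7 vs. D3 (-0.53, 0 genes), SORT1 D14 vs. D-3 (0.56) and SORT1 D25 vs. D-3 (0.57, 1 gene) were lost. With TMM without milk genes, LAMP1 D7 vs. D3 was lost (-0.52, 0 genes). LAMP1 HT vs. CL at D25 became 0.0014 with RLE factors and 0.0014 with DESeq2. The cause of these changes was not tested, apart from the shift of all loci.

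With the cow as a replicate block, DRAM1 D25 vs. D-3 passed (0.27), as it did in the block with cows 8513 and 8660 exchanged (0.27) or left out (0.33). Without the block it did not pass when both cows were left out (0.33). SORT1 D25 vs. D14 became -0.0015 with the block, -0.0056 with the exchange, -0.013 in the block without both cows and -0.0028 without the D14 library of cow 7965. Without both cows SORT1 D7 vs. D3 passed at -0.67 (block -0.65), so that 2 genes fell (block 2), and LAMP1 D7 vs. D-3 became 0.077 (block 0.053). With both cows left out EPG5 and SORT1 also passed for D7 vs. D-3, at 0.27 and 0.61 (block 0.28 and 0.59). With the exchange LAMP1 D25 vs. D3 passed in the block at -0.39. The block changed no other call than these and EPG5 D14 vs. D-3.

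Leaving out 1 cow at a time gave these ranges. The values ran from 0.35 to 0.43 for DRAM1 D3 vs. D-3, from -0.070 to 0.13 for DRAM1 HT vs. CL at D-3, from -0.013 to 0.20 for DRAM1 HT vs. CL at D7 and from -0.016 to 0.16 for DRAM1 HT vs. CL at D14. They lay at 0.24 to 0.32 for EPG5 D3 vs. D-3, at 0.27 to 0.36 for EPG5 D25 vs. D-3, at -0.021 to 0.062 for EPG5 D25 vs. D3 and at -0.066 to 0.079 for EPG5 HT vs. CL at D-3. The values ran from -0.13 to 0.049 for EPG5 HT vs. CL at D3, from 0.42 to 0.62 for LAMP1 D3 vs. D-3, from -0.59 to -0.46 for LAMP1 D7 vs. D3 and from -0.061 to 0.025 for LAMP1 D7 vs. D-3. They lay at -0.10 to 0.23 for LAMP1 HT vs. CL at D3, at -0.0035 to 0.20 for LAMP1 HT vs. CL at D14, at -0.076 to 0.14 for LAMP1 HT vs. CL at D25 and at -0.66 to -0.47 for SORT1 D7 vs. D3. The values ran from -0.050 to 0.081 for SORT1 D25 vs. D14, from 0.44 to 0.84 for SORT1 D25 vs. D-3, from -0.10 to 0.33 for SORT1 HT vs. CL at D3 and from -0.083 to 0.10 for SORT1 HT vs. CL at D14. They lay at -0.067 to 0.17 for SORT1 HT vs. CL at D25, at 1 to 4 for the number of genes higher in D3 vs. D-3, at 0 to 2 for the number of genes lower in D7 vs. D3 and at 0 to 2 for the number of genes higher in D25 vs. D-3. The precision rests on 6 cows per group, with at least 142 reads of each of the 4 genes in a library.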
